A study of Mus musculus with 2 samples.

Results

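The 9 genes described here encode the proximal T cell receptor signalling machinery: the kinases Lck, Fyn and Zap70, the adaptors Lat and Lcp2, the surface molecules Cd4 and Thy1, and the brakes Cd5 and Dgka. They were taken by name from the deposited table, and all 9 were among its 12432 genes. The cells were purified CD4 T cells that recognise the peptide 2W1S, and came from the spleens and peripheral lymph nodes of mice of the C57BL/6 genotype. Every mouse was colonized with Ca-2W1S. This name is read here as a Candida albicans strain that expresses the peptide, an inference beyond the labels. The series holds 1 group, a March and an April sample on the Fluidigm C1 system with SMART-Seq v4 chemistry, so there was no uncolonized or other-specificity reference. Each month's sample is called a capture below. Its column names carry 2 run names, so it need not be a single C1 capture. The age of the mice and the number pooled per capture are not stated in the labels.

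When a T cell receptor meets its peptide, Lck, brought to the receptor by the coreceptor CD4, phosphorylates the signalling motifs of the CD3 and zeta chains, and Fyn shares this work. Zap70 docks on those motifs and phosphorylates the adaptors LAT and SLP-76 (the product of Lcp2), and these assemble the complex that opens the calcium and Ras branches. CD5 dampens the signal at the receptor, Dgka removes the diacylglycerol that feeds the Ras branch, and Thy1 is a surface glycoprotein anchored by lipid.

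The table held 178 cells, 82 from March and 96 from April. The column names showed 4 runs, with 25 cells in Mar1, 57 in Mar17, 48 in Apr13 and 48 in Apr21. Values were log2 of a TPM-like number plus 1, adjusted for gene length; "linear value" below means the number before the log. Median genes detected per cell lay between 4859 and 5491 over the runs, and read depth is unknown because no counts were in the table. In Mar1, 3 cells had mitochondrial shares between 65.8% and 93.9%, against at most 38.2% in every other cell. Leaving these cells out moved the share at 1 or more by little, to 56.6% for Fyn, 48.6% for Zap70 and 65.7% for Cd5, the genes given below at 56.7%, 48.9% and 66.3%. T cell markers were high, with Trac reaching a linear value of 10 in 91.6% of cells and Cd3d in 89.3%. Genes that CD4 T cells should lack were seldom that high: Cd8b1 in 10.7% of cells, Cd8a in 4.49%, Ebf1 in 2.81% and Itgam in 1.69%. The table held 2 of 4 CD8 T cell, 2 of 6 B cell, 2 of 6 myeloid and 1 of 4 NK cell markers, and the others were not analysed here. Ebf1, a B cell factor, nevertheless reached a linear value of 1 in 88.8% of cells and Itgam, a myeloid integrin, in 40.4%. A share at this lower threshold is therefore weak evidence of expression on its own, and shares at 10 are given beside the main ones. Cells are not replicates, and intervals on shares are exact 95% Clopper-Pearson intervals that cover counting error only.

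By mean log2 level Lck was the highest of the 9 genes and Zap70 the lowest, and Lck had the smallest spread. On the linear scale the lowest mean was that of Thy1 (88.8), below Cd4 (109.8) and Zap70 (147.1). In Mar1 the mean log2 level of Zap70 (4.14) was above those of Fyn (3.57) and Thy1 (3.24). Lck lies at chr4:129548344-129573641 on the minus strand and Zap70 at chr1:36761798-36782818 on the plus strand (mm10). Promoter windows of Lck and Zap70 at the annotated gene starts are shown because these genes mark the top and bottom of the order by mean log2 level. Each covers 250 bases before the start and 50 after it, from RefSeq (GRCm38.p6), 5′ to 3′ on the gene's strand. Capitals mark the letters AGGAAG of the ETS core and TGTGGT of the RUNX motif on either strand, which were chosen after values were seen. The Lck window is chr4:129573592-129573891 and the Zap70 window chr1:36761548-36761847.
Lck: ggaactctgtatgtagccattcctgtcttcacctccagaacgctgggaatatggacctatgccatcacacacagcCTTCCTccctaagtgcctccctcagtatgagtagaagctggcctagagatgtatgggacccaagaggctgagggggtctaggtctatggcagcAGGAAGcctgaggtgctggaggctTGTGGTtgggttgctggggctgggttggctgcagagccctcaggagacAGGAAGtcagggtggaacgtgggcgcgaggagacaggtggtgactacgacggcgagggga
Zap70: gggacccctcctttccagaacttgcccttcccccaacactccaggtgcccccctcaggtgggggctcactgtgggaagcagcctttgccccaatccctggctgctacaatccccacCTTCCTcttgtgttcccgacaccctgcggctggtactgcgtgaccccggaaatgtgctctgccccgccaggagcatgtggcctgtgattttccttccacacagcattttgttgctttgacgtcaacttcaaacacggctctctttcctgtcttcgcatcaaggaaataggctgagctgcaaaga
The Lck window shown held 3 ETS matches and 1 RUNX match, and the Zap70 window shown 1 ETS match and 0 RUNX matches. Other windows of the same genes had the opposite order: the Lck window at chr4:129558323-129558622 held 1 ETS and 0 RUNX matches, and the Zap70 window at chr1:36764265-36764564 held 2 ETS and 1 RUNX. A further Zap70 window at chr1:36778734-36779033 held neither. Of all 32851 windows in the RefSeq table, 35.4% held the ETS letters and 16.8% the RUNX letters. Windows were on hand for 7 of the 9 genes, 13 in all, of which 10 held the ETS letters and 3 the RUNX letters. Several windows belong to the same gene. The Dgka windows at chr10:128744027-128744326 and chr10:128743829-128744128 overlap and share an ETS match, so the windows are not separate counts. A match is a description of the letters and not a site.

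Lck, the Src-family kinase that starts the signal, reached a linear value of 1 in all 178 cells (100%, interval 97.9% to 100%) and of 10 in 94.9%. Its log2 level ran from 3.38 to 11.83 with a median of 9.27 in Mar1, and from 1.02 to 13.40 with a median of 10.37 in Mar17. In Apr13 it ran from 2.02 to 12.55 with a median of 10.003, and in Apr21 from 1.87 to 12.05 with a median of 9.96. The 4 runs overlapped almost completely. Fyn (chr10:39368855-39565381, plus strand), another Src-family kinase, reached 1 in 56.7% of cells (49.1% to 64.1%) and 10 in 41.0%, and 24 cells were listed at 0. Its run medians were 1.55, 0.85, 3.54 and 2.58 in Mar1, Mar17, Apr13 and Apr21, with maxima of 10.42, 10.46, 11.68 and 10.14. In cells where Fyn reached 1 its median was 6.59, against 1.68 over all cells. Lck was above Fyn in 162 of 178 cells (91.0%).

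Zap70, the kinase that carries the signal to the adaptors, reached 1 in 48.9% of cells (41.3% to 56.5%) and 10 in 33.7%. Its run medians were 3.68 in Mar1, 1.04 in Mar17, 0.80 in Apr13 and 0.75 in Apr21, with maxima of 10.93, 11.06, 9.44 and 10.46. Mar1 was the high run by median. Medians near the floor hide differences among the others, whose shares at 10 were 33.3% in Mar17, 20.8% in Apr13 and 37.5% in Apr21, against 52.0% in Mar1. The related kinase Syk, which can stand in for Zap70 in other lymphocytes, reached 1 in 2.25% of cells, and 88 cells (49.4%) had neither Zap70 nor Syk at 1. At a threshold of 10, 115 cells (64.6%) had neither. Absence here means not detected at this depth, since a transcript can be missed in a single cell.

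The adaptors were more widely detected than Fyn and Zap70. Lat (chr7:126363824-126369570, minus strand), the membrane scaffold, reached 10 in 85.4% of cells and 1 in 97.8%. Its medians were 6.40 in Mar1, 8.97 in Mar17, 10.24 in Apr13 and 9.17 in Apr21, and Mar1 was the low run. Lcp2 (chr11:34046920-34092295, plus strand), which encodes SLP-76, reached 10 in 68.0% and 1 in 92.1%, with medians of 5.39, 4.56, 6.53 and 6.58 over the same runs. An exon of Lcp2 overlaps 4930469K13Rik on the opposite strand, which reached 1 in 9.55% of cells, and whether counting used strand is not given in the sources used here.

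The surface molecules were patchy although the cells had been purified as CD4 T cells. Cd4 transcript (chr6:124864692-124888221, minus strand) reached 1 in 70.8% of cells and 10 in 89 of the 178, and 16 cells were listed at 0. Its medians were 3.90 in Mar1, 2.55 in Mar17, 4.21 in Apr13 and 4.69 in Apr21, with maxima between 9.58 and 10.63. Thy1 (chr9:44043384-44048579, plus strand) reached 1 in 72.5% and 10 in 53.4%, with medians of 2.82, 2.35, 5.13 and 3.95 in the same order of runs. In both April runs Thy1 medians were above both March medians. Neither gene reached 1 in 19 cells (10.7%), and neither reached 10 in 49 (27.5%).

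The brakes differed in how they were spread over cells. Dgka (chr10:128720134-128744855, minus strand), the diacylglycerol kinase, reached 1 in 84.3% of cells and 10 in 61.8%, with medians of 5.05, 5.70, 5.37 and 5.76 from Mar1 to Apr21, so its runs were nearly level. Dgka overlaps Pmel on the opposite strand. Pmel reached 1 in 9.55% of cells. Its Spearman rho with Dgka across cells (0.470 in March and 0.538 in April) therefore rests mostly on values below 1. For Lcp2 and 4930469K13Rik the rho was 0.260 and 0.084. Whether reads of such pairs were separated was not tested. Cd5 (chr19:10717116-10739002, minus strand), the inhibitory receptor, reached 1 in 66.3% and 10 in 44.4%, with medians of 2.34, 2.91, 1.79 and 1.46. Its share at 1 was 84.0% in Mar1 and 70.2% in Mar17, and 60.4% in Apr13 and 58.3% in Apr21. At 10 the runs lay closer, at 48.0%, 47.4%, 39.6% and 43.8%. Both brakes reached 1 in 101 cells (56.7%) and neither did in 11 (6.18%). Both reached 10 in 45 cells (25.3%) and neither did in 34 (19.1%).

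**Figure D1:**
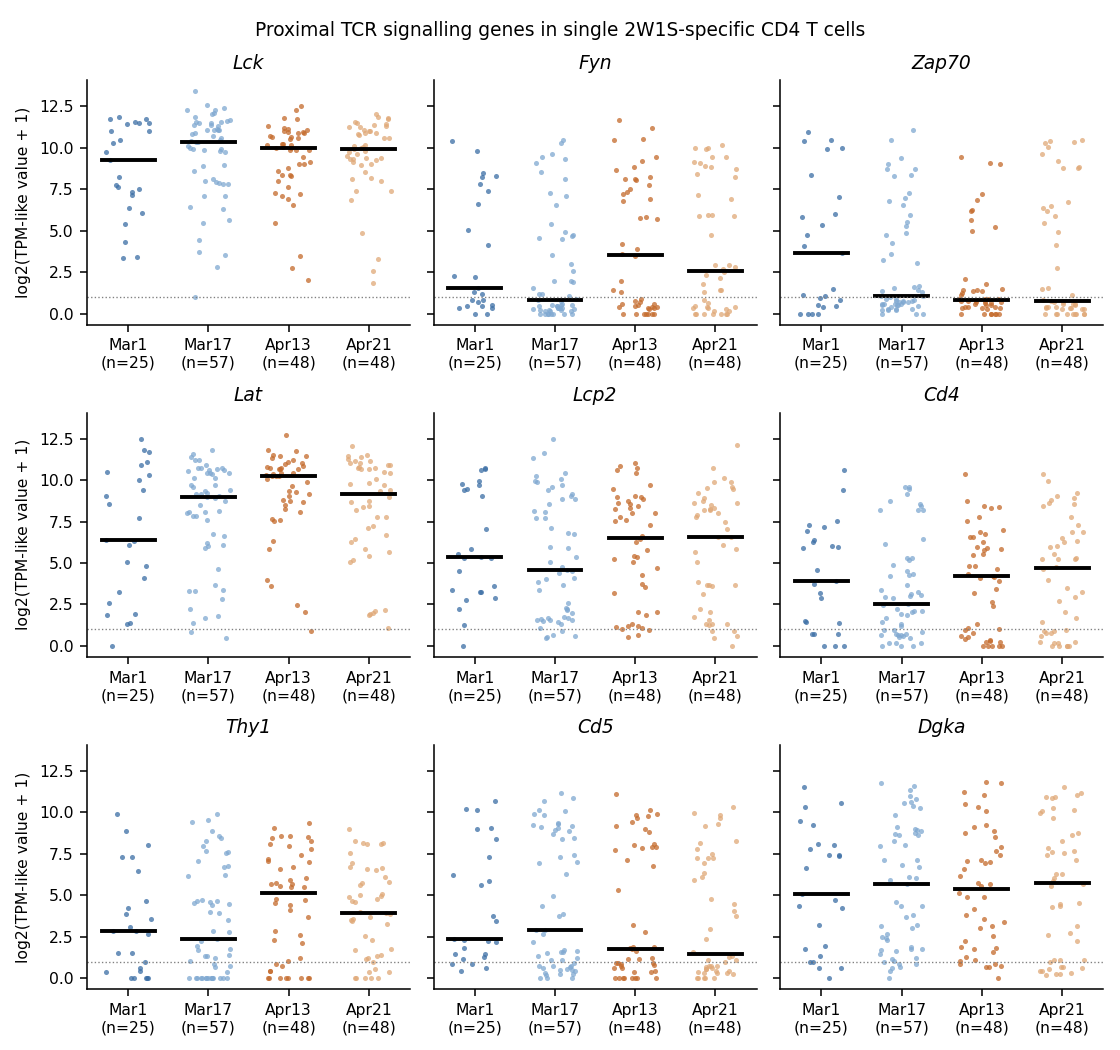
Log2(TPM-like value + 1) of each gene in every cell, with cells grouped by run on the horizontal axis; points are cells, black bars are run medians and the dotted line marks a linear value of 1. Lck sits high in nearly every cell (run medians 9.27 to 10.37). Fyn and Zap70 (medians 1.68 and 0.91) range from cells at 0 to cells at high levels, with 28 and 27 cells between linear values of 1 and 10. Cd5 (median 2.23) has a similar range, with 39 such cells.

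Ordered by the mean of the 2 captures on the per-length log2 scale, the genes ran Lck (9.30 ± 0.10), Lat (8.10 ± 0.84), Lcp2 (5.70 ± 0.25), Dgka (5.42 ± 0.04), Cd5 (4.10 ± 0.45), Cd4 (3.88 ± 0.31), Thy1 (3.80 ± 0.61), Fyn (3.52 ± 0.79) and Zap70 (2.98 ± 0.46; SD, n = 2 captures). Run means separated Lat (6.75 to 9.14) from Lcp2 (5.30 to 6.04), and Dgka (5.35 to 5.48) from Cd5 (3.62 to 4.45). Run means of all other neighbours in the order overlapped, Lck (8.71 to 9.47) and Lat included. Within each run, however, Lck was above Lat, with the closest means in Apr13 (9.27 and 9.14). The other overlapping neighbours changed order between runs.

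Cell-to-cell spread within runs was wide for all 9 genes and close to what their levels carry in this table. The SD of log2 values was 3.81 for Cd5, 3.72 for Dgka, 3.67 for Fyn, 3.46 for Lcp2, 3.43 for Zap70, 3.16 for Lat, 3.13 for Cd4, 3.08 for Thy1 and 2.52 for Lck. Against a lowess trend of SD on mean over all genes, Cd5 lay 0.42 above, Fyn 0.37 above, and Zap70 and Dgka 0.29 above. Thy1 lay -0.27, Lck -0.25 and Cd4 -0.24 from the trend. Differences between runs held little of the variance: 5.58% for Lat, 3.91% for Zap70 and 0.0221% for Dgka, against a median of 1.22% over the 9 genes and 1.67% over all genes. Small as they are, the shares of Lat and Zap70 were above those of 96.0% and 87.9% of all genes.

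**Figure D2:**
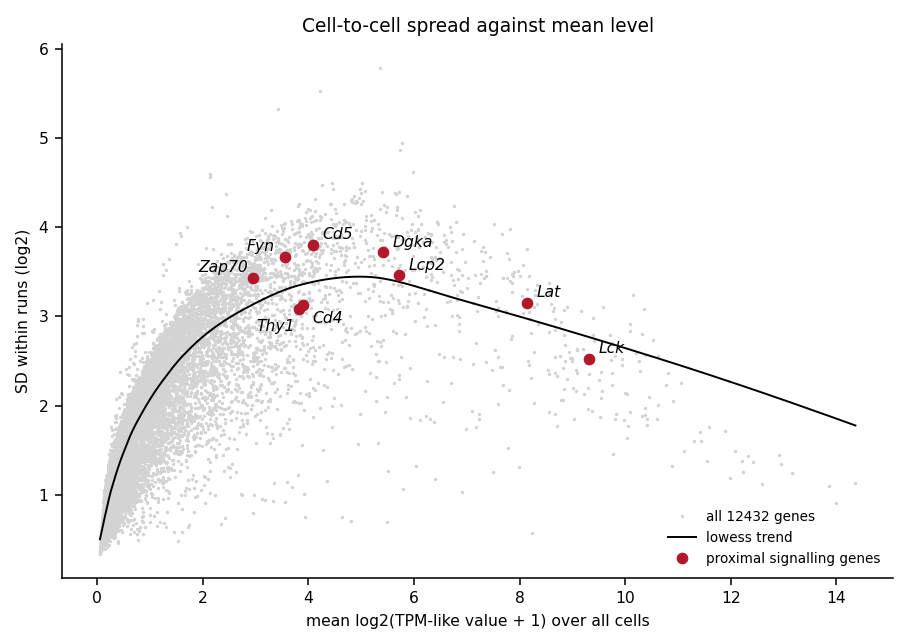
SD of log2 values within runs against mean log2(TPM-like value + 1) over 178 cells; each grey point is 1 of 12432 genes, the line is the lowess trend and red points are the 9 signalling genes. Cd5 and Fyn lie above the trend by 0.42 and 0.37, and Lck, Cd4 and Thy1 lie below it.

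Detection of all 9 transcripts in the same cell was rare. Joint counts depend on the share of each gene alone, and no count expected from those shares was computed. Between 3 and 9 of the genes reached 1 per cell, with a median of 7, and all 9 did so in 21 cells (11.8%, interval 7.45% to 17.5%), 11 of 82 in March and 10 of 96 in April. Lck, Lat and Lcp2 together reached 1 in 161 cells (90.4%), and the same 3 with Zap70 in 83 (46.6%). Fyn and Zap70 both reached 1 in 50 cells (28.1%) and neither did in 40 (22.5%). At a threshold of 10 the median was 5 genes per cell, and all 9 reached it in 5 cells (2.81%). Lck, Lat and Lcp2 together reached 10 in 105 cells (59.0%), and with Zap70 in 39 (21.9%). Fyn and Zap70 both reached 10 in 29 cells (16.3%) and neither did in 74 (41.6%). The number of these genes per cell followed the number of all genes at 1 or more in that cell, with Spearman rho of 0.319 in Mar1, 0.638 in Mar17, 0.524 in Apr13 and 0.357 in Apr21. The part of detection depth in these counts was not tested.

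Co-expression across cells was weak for most of the 36 pairs. The median Spearman rho over pairs was 0.0688 in March and 0.0243 in April, beside 0.0401 and 0.0228 for all pairs among 4112 commonly detected genes. The March value rested on the 25 cells of Mar1, where the median was 0.144. In Mar17 alone it was 0.0249, below the 0.0341 of all pairs in that run. The sign was the same in both captures for 24 pairs (66.7%), beside 55.4% of all pairs. These values describe 82 and 96 cells that share captures and depth, and a weak rho in sparse data is no finding. Fyn and Cd4 had the highest mean rho, 0.304 in March and 0.192 in April. Their rho was positive in all 4 runs (0.333, 0.237, 0.0679 and 0.308), as it was for 4 of the 36 pairs. The pair was picked as the highest from these same cells, so the signs in the runs are no separate support. Fyn reached 1 in 59.3% of March cells with Cd4 at 1 or more (35 of 59), against 30.4% of those with Cd4 below 1 (7 of 23). In April the shares were 67.2% (45 of 67) and 48.3% (14 of 29). With 10 as the threshold for both genes, the shares were 42.9% (15 of 35) and 27.7% (13 of 47) in March but 48.1% (26 of 54) and 45.2% (19 of 42) in April, so the April shares then lay close together. Both genes also followed the number of genes detected per cell, Fyn with rho 0.211 and 0.177 and Cd4 with 0.194 and 0.216 in March and April. After adjustment for genes detected the mean rho of the pair was 0.217, against 0.248 without it. Cd4 and Thy1 came next, with rho of 0.302 and 0.133, followed by Zap70 and Lcp2 at 0.271 and 0.107 and Lcp2 and Cd5 at 0.222 and 0.153.

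The lowest pair joined a kinase and a brake. Fyn and Dgka had rho of -0.176 in March and -0.254 in April, negative in all 4 runs (-0.242, -0.124, -0.254 and -0.244). Of the 36 pairs, 1 was positive in 0 runs. This pair too was picked from the same cells, as the lowest, so the signs in the runs are no separate support. After adjustment for genes detected the mean of the captures was -0.226. Within cells that held both genes at 1 or more, rho was -0.110 in 35 March cells and -0.00775 in 47 April cells. Lck with Dgka (-0.165 and -0.037), Zap70 with Dgka (-0.144 and -0.024), Thy1 with Cd5 (-0.151 and -0.021) and Cd5 with Dgka (-0.101 and -0.026) were also negative in March and April. Other brake pairs went the other way or changed sign. Thy1 with Dgka had rho of 0.191 and 0.022 and Cd4 with Dgka 0.073 and 0.037, whereas Fyn with Cd5 had 0.209 and -0.009 and Zap70 with Cd5 0.245 and -0.050.

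**Figure D3:**
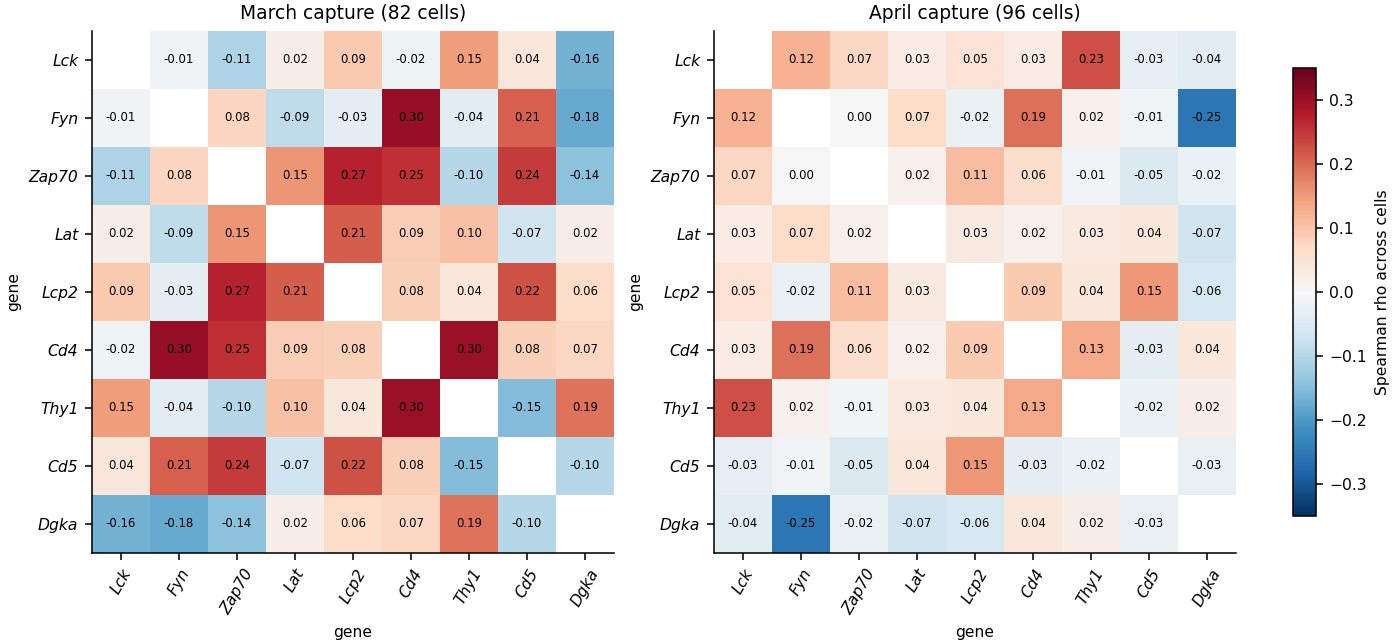
Spearman rho across cells for each pair of genes, in the March capture (left, 82 cells) and the April capture (right, 96 cells); rows and columns are genes and colour runs from blue (negative) to red (positive). Fyn with Cd4 (0.304 and 0.192) and Fyn with Dgka (-0.176 and -0.254) are the highest and lowest pairs by the mean of both captures.

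The genes most like each member were named by the mean of the 2 capture rho values among genes at 1 or more in at least 25% of cells of both captures. For Lck these were Lamtor2 (0.286) and Hcst (0.245), for Fyn Cct2 (0.316) and Chd8 (0.316), and for Zap70 Adsl (0.295) and Pla2g16 (0.274). For Lat they were Gm9703 (0.271) and Cox7a2 (0.268), and for Lcp2 St13 (0.277) is given. For Cd4 they were Tlcd2 (0.326) and A530040E14Rik (0.257), for Thy1 Tmsb4x (0.339) and Rpl29 (0.296), for Cd5 Gm14443 (0.301) and Zfp644 (0.274), and for Dgka Ass1 (0.346) and Arf6 (0.311). The median over all these genes of a gene's own highest mean rho was 0.324, which the highest value of Cd4, Thy1 and Dgka passed and that of Lck, Fyn, Zap70, Lat and Cd5 did not.

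Of 62 further genes of the pathway, 59 were in the table, and Tec, Dok1 and Spry1 were not analysed here. The median share of cells at 1 or more was 89.6% for receptor and surface genes, 40.4% for kinases, 37.6% for adaptors and exchange factors, 37.6% for brakes and 16.3% for effectors. At 10 or more the medians were 57.3%, 21.9%, 21.6%, 21.3% and 10.96% in the same order. Roles were assigned for this list, with Csk counted as a kinase, Pag1, Lax1 and Sit1 as adaptors, and Ptprc as a brake. The medians therefore do not set activators against inhibitors. The CD3 chains Cd3g (mean log2 level 8.87) and Cd3d (7.86) led the surface genes, and Trat1 (2.53) and Cd81 (0.83) were lowest. Among kinases Prkcq, a protein kinase C, averaged 2.73, while Itpkb averaged 0.57 and Syk 0.13. The SLP-76 partner Fyb (7.84) and Skap1 (6.32) led the adaptors, with Nck1 (0.89) and Sos1 (0.56) lowest. Rhoh (2.49) and Malt1 (2.23) led the effectors, with the calcium channel gene Orai1 (0.55) and Unc119 (0.33) lowest. Among brakes the phosphatases Ptpn22 (4.57) and Ptpn7 (3.97) were highest, and Sla2 (0.51) and Sh2b3 (0.31) lowest.

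The 9 genes were then compared between cells that did or did not express Klf2, the factor named in the series title, Cd69, an early activation marker, and Cxcr5, a marker of follicular-type CD4 T cells. A cell counted as expressing from a linear value of 1 upward, a threshold that genes foreign to T cells also passed. Log2 values were averaged per class and capture, giving 4 libraries, and limma tested 8524 other genes with capture as a block and Benjamini-Hochberg adjustment. The fit has 1 residual degree of freedom, so its spread comes largely from other genes. The total degrees of freedom after borrowing were 18.8 for Klf2 and 15.4 for Cd69 but 8525 for Cxcr5, where a gene's own spread counted for nothing and a single pooled trend set every SE and p. With capture as a block, the residual is how far a class difference disagreed between the March and April captures. The p-values for Klf2 and Cd69 speak only to that disagreement, pooled with that of other genes. For Cxcr5 the disagreement of the gene itself did not enter. Such disagreement may be technical.

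Of the cells, 27 in March and 26 in April expressed Klf2, and none of the 9 genes passed the test. Over all genes limma called 0, or 0%, and 574 (6.73%) had an unadjusted p under 0.05, against 2 of the 9, Zap70 and Dgka. Zap70 averaged 2.79 in Klf2-expressing and 3.56 in other March cells, and 1.60 and 3.05 in April, a difference of -1.11 ± 0.47 (SE; limma adjusted p = 0.684). Dgka averaged 5.63 and 5.35 in March and 6.91 and 4.83 in April, a difference of 1.18 ± 0.55 (limma adjusted p = 0.730). Both kept their direction in both captures, but the Dgka difference was 0.27 in March and 2.08 in April. Without run Mar1 the differences were -0.69 for Zap70 and 0.82 for Dgka. The sign was the same in both captures for 5 of the 9, beside 51.3% of all genes.

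Cd69 was expressed in 51 March and 69 April cells, and again none of the 9 passed. Limma called 0 genes (0%), 460 (5.4%) had an unadjusted p under 0.05, and of the 9 only Cd5 did. Cd5 averaged 4.67 in Cd69-expressing and 4.02 in other March cells, and 4.33 and 2.40 in April, a difference of 1.29 ± 0.56 (limma adjusted p = 0.908), which was 0.83 without run Mar1. Lat differed by -1.04 ± 0.62 (limma adjusted p = 0.926). The sign was the same in both captures for 3 of the 9, beside 50.3% of all genes.

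Cxcr5 was expressed in 20 March and 40 April cells. Limma called 4 genes (0.0469%), Ctsb, P4hb, S100a11 and Traj23, all higher in Cxcr5-expressing cells, and none of the 9 was among them. An unadjusted p under 0.05 was found for 682 genes (8%), against 3 of the 9, Fyn, Zap70 and Lat. Fyn averaged 4.76 in Cxcr5-expressing and 2.38 in other March cells, and 4.94 and 3.45 in April, a difference of 1.93 ± 0.54 (limma adjusted p = 0.148, and 0.0804 to 0.970 over the alternatives). Without run Mar1 the Fyn difference was 1.67, and none of the 4 calls among other genes was made. Zap70 averaged 4.51 and 2.92 in March and 3.44 and 2.09 in April, a difference of 1.47 ± 0.52 (limma adjusted p = 0.361). Lat averaged 8.44 and 7.21 in March and 9.26 and 8.29 in April, a difference of 1.10 ± 0.47 (limma adjusted p = 0.480). The sign was the same in both captures for 7 of the 9, beside 52.5% of all genes. Of the 9, 5 were higher in Cxcr5-expressing cells in both captures, as were 2946 of all 8524 genes tested. Cxcr5-expressing cells also had more genes at 1 or more, with medians of 3352.5 against 3216 in March and 3364 against 3050 in April, and the part of this in the differences was not tested. With means taken on the linear scale the differences were smaller, at 0.80 for Fyn, 0.78 for Zap70 and 0.22 for Lat, and with the class set above 0 that of Zap70 was 0.53. Cxcr5 itself overlaps Bcl9l on the opposite strand, which reached 1 in 14.0% of cells. Their Spearman rho was 0.160 in March and 0.285 in April.

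**Figure D4:**
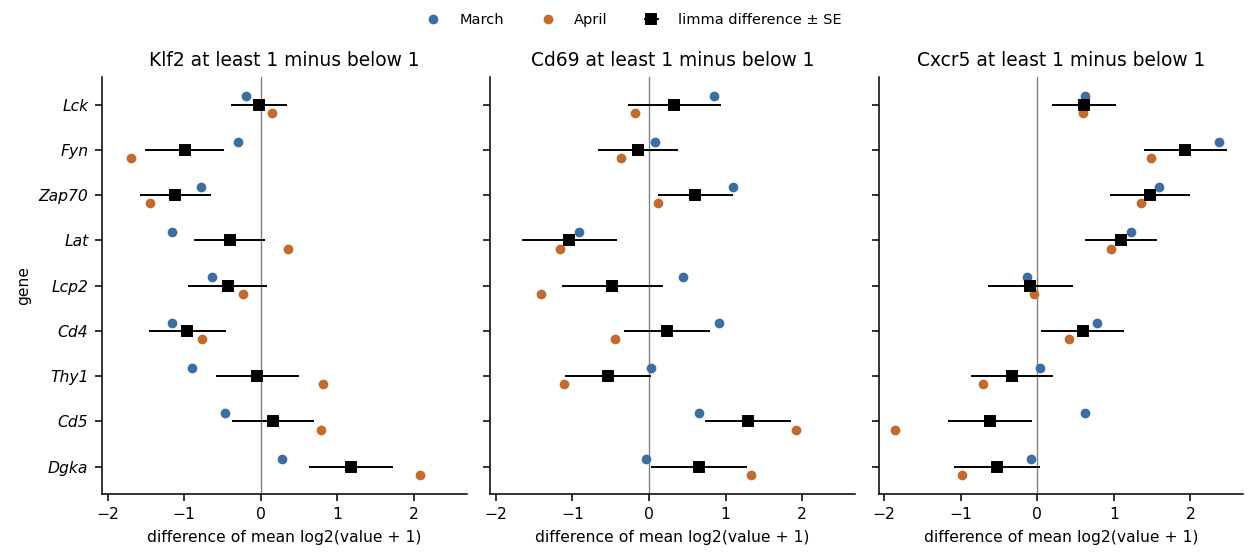
Difference in mean log2(value + 1) between cells whose linear value of the class gene was 1 or more and cells below it, for Klf2, Cd69 and Cxcr5; blue and orange points are the March and April captures, and black squares with bars are the limma difference ± SE. For Cxcr5, Fyn, Zap70 and Lat (1.93, 1.47 and 1.10) lie right of 0 in both captures, as do Lck and Cd4 (0.61 and 0.59). Of all 8524 genes tested, 2946 do so, and no difference of the 9 genes passed adjustment.

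Of the wider pathway list, 55 genes were tested and 0 passed in each comparison, with 4, 5 and 8 at an unadjusted p under 0.05 for Klf2, Cd69 and Cxcr5, beside 6.73%, 5.4% and 8% of all genes. The smallest p for Klf2 belonged to the costimulatory receptor Cd28, which differed by 1.52 ± 0.49 (limma adjusted p = 0.583), followed by Sh2d1a (-1.44), Sla (-1.22) and Cd3d (-1.14). For Cd69 it belonged to the exchange factor Vav1, at -1.28 ± 0.41 (limma adjusted p = 0.876), followed by Trat1 (1.19), Sos1 (0.45) and Ubash3a (0.90). For Cxcr5 it belonged to Ptpn22, the phosphatase that acts on Lck and Zap70, at 2.13 ± 0.56 (limma adjusted p = 0.0930), followed by Lax1 (1.33), Sh2d2a (1.41) and Cd3d (1.27). The Ptpn22 difference was 3.53 in March but 0.72 in April, a gap that the SE from the pooled trend does not reflect.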

How the data were processed

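Single-cell RNA libraries of 2 captures were analysed. The deposited table gave log2 values per gene and cell, made by the authors. They were read as log2(TPM-like + 1), an inference from the numbers themselves, since back-transformed sums ran from 892206 to 979888 per cell. Per the submitters' processing notes, the genome build was mm10. Aligner, counter and strand setting: not given in the sources used here. Ensembl IDs were matched to symbols for 12163 genes and not for 269; 0 columns were left unmapped. No cells were left out and no doublet caller was run; 0 cells had values identical to another's. Gene positions came from GENCODE vM21.

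Python 3.11.15, pandas 2.3.3, SciPy 1.17.1, statsmodels 0.14.6, R 4.3.3 and limma 3.58.1 were used. Genes entered the class tests when 10% or more of cells had a linear value of 1 or above, with adjusted p under 0.05. The class test was tried on the real values, with classes shuffled within each capture and 200 genes shifted. A log2 shift of 1 was recovered for 1.5%, 7.5% and 0% of these genes at the Klf2, Cd69 and Cxcr5 class sizes. A shift of 2 was recovered for 88%, 90.5% and 90%, with 21, 15 and 51 false calls among the other genes. Differences near 1 would thus mostly go uncalled. The shares recovered at a shift of 2 do not carry over to the 9 genes. Shifting 200 genes at once eases the adjustment, and these genes were drawn from all tested genes. The median SD within runs was 3.43 for the 9 genes, against 1.75 over all genes. In the real fit the Fyn difference of 1.93 for Cxcr5 was not called. Named genes were the 9 members, the 2 highest and 2 lowest per role of the pathway list, up to 4 list genes of smallest p per comparison, the 2 most alike genes per member, and the class and marker genes. Some genes that this rule names are not reported here. Pairing follows from both classes coming from the same capture. Members and lists were chosen with earlier results of these data known. The alternatives without run Mar1, with a class threshold of 10 and with per-cell counts at 10 were added after seeing the data.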

Additional observations from a re-analysis of the deposited data

How the results depend on the processing

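Member co-expression, at 0.0465 for the mean of the 2 captures' median rho, ranged over the alternatives from 0.0246 without run Mar1 to 0.0647 with Pearson correlation. Within cells holding both genes at 1 or more the April median was -0.0024 and the March median 0.102. Of the single-pair rho values recomputed with both captures, 33 moved by more than the SD of the captures and 147 did not. With 1 capture left out there is no test, and the median rho was 0.0243 and 0.0688. The 9 genes stayed uncalled in the class comparisons. Genes called over the table moved: for Klf2 from 0 to 12 with a pseudocount of 10; for Cd69 from 0 to 2 with quantile normalization and 1 with a class threshold of 10. For Cxcr5 the 4 calls became 1 with the class set above 0, and 0 with the mean taken on the linear scale, with no replicate block, with 4 runs as libraries, without run Mar1 and with a class threshold of 10. Of the member differences recomputed with both captures, 254 kept their direction and 16 reversed, all uncalled. With the class set above 0, reversed values were 0.24 (Lck), 0.13 (Thy1) and -0.35 (Cd5) for Klf2; -0.13 (Zap70), 0.10 (Lcp2), -0.63 (Cd4) and 0.0080 (Thy1) for Cd69; and 0.15 (Thy1) for Cxcr5. On the linear scale they were 0.036 (Thy1, Klf2), 0.38 (Fyn, Cd69) and 0.14 (Lcp2, Cd69). With a class threshold of 10 they were 0.054 (Lcp2, Cd69), 0.21 (Thy1, Cd69) and 0.17 (Lcp2, Cxcr5). Lck for Klf2 was 0.34 without run Mar1 and Thy1 for Klf2 0.25 with 4 runs. The cause was not tested. Depth is unknown, so a gene at 0 is not shown to be absent.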
